A study of Homo sapiens with 12 samples.

Results

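Extracellular vesicles (EVs) released in normoxia were compared with the normoxia cells that released them, in 3 EV libraries and 3 cell libraries out of the 12 libraries of the series, chosen by their sample titles. The cells were HEK293, an established line from human embryonic kidney kept in medium with 10% serum. Every group had been lipofected for 48 h with 4EC1, a vector named after eGFP, EIF4E (with C), YTHDF1/GBP1 and CD9. TRIzol was used for the cells and the exoRNeasy midi kit for the EVs, after which 1 stranded total RNA kit served both. The kind of RNA and the way it was extracted therefore cannot be told apart. The protocol text, shared by all samples, also names a hypoxia chamber, and the groups here rest on the treatment given as normoxia. No untransfected cells and no EVs from them are among the labels, and nothing says that the 3 replicates came from separate cultures. The p-values therefore apply to these libraries alone, and the spread between them may be technical.

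EVs are membrane-bound particles that cells shed from the plasma membrane or release from endosomal multivesicular bodies, and they carry protein and RNA from the parent cell. Tetraspanins such as CD9, CD63 and CD81 lie in their membranes. EIF4E binds the cap at the start of mRNAs, and YTHDF1 binds mRNAs that carry the m6A mark, so that a fusion of these factors with CD9 could bring mRNA to the vesicle membrane. The EV compartment is also known for short, structured RNAs made by RNA polymerase III, such as Y RNA, vault RNA and 7SL.

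The deposited values are read counts scaled by 1 factor per library and are called normalised read counts here. Cell libraries held 19380437 to 23400813 reads and EV libraries 5266244 to 7001767, so that a read was worth 0.481 to 0.551 units in cells and 1.80 to 2.38 in EVs. A count of 0 allows up to 3 reads, or 1.44 to 1.65 units in cells and 5.40 to 7.14 in EVs, for counting error only. Thinned to 5266244 reads each, cell libraries showed 28667 to 30612 genes and EV replicates 1, 2 and 3 showed 27316, 30724 and 36869. The HEK293 markers summed to 23753 to 24866 units in cells and 14725 to 22865 in EVs, with none at 0 in either group. Values are relative within a library, so more vesicles with an RNA and more copies per vesicle cannot be told apart.

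The EV profile was that of the parent cell in outline only. Across 21143 genes with a mean of at least 10 over the 6 libraries, log2 values of cell libraries correlated with each other at Pearson's r of 0.975 to 0.977, EV libraries with each other at 0.817 to 0.868, and EV with cell libraries at 0.701 to 0.818. Genes are not independent replicates, so these values are descriptions. The median SD between replicates was 0.19 on the log2 scale in cells and 0.53 in EVs, and it was larger in EVs for 85.2% of genes. EV replicate 3 lay farthest from the cells and EV replicate 1 nearest.

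Of those 21143 genes, 5397 (25.5%) rose in EVs and 6027 (28.5%) fell at an adjusted p under 0.05 (limma on log2 of the value plus 1, Benjamini-Hochberg adjustment), 54% in all. Groups of 3 and 3 libraries did not overlap for 62.6% of genes, with EVs above for 30.3% and below for 32.4%. edgeR called 26.6% higher and 30.3% lower, and DESeq2 32.6% and 27.6%. Of the genes called, 4628 rose and 4634 fell by at least 1 on the log2 scale. Among the 15958 protein-coding genes tested, 3831 (24%) rose and 5475 (34.3%) fell, with a median log2 fold change of -0.12, against 0.07 for all genes. Scaling moved that median of all genes from -0.10 with equal totals to 0.32 with equal totals without the 10 highest genes, so smaller changes are read against this range.

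**Figure D1:**
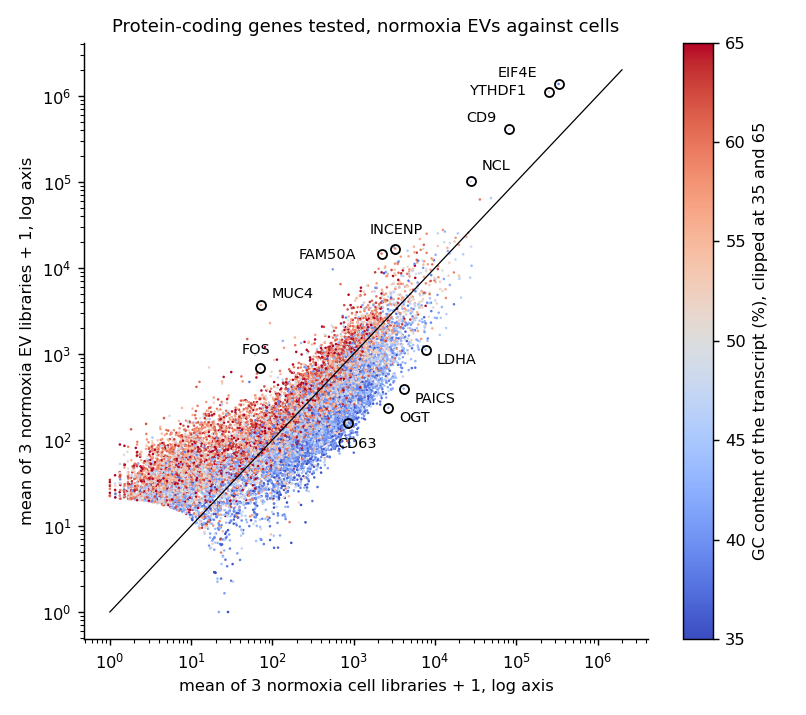
Mean normalised read count plus 1 in the 3 normoxia cell libraries (x axis, log) and the 3 normoxia EV libraries (y axis, log) for each of 15958 protein-coding genes tested, coloured by the GC content of the transcript in percent, with the line of equal values. The construct genes and MUC4 lie above the line and CD63, OGT, PAICS and LDHA below it, and GC-rich genes lie mostly above GC-poor genes at the same level in cells.

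The mRNAs named in the construct were the most abundant RNAs with a gene name in EVs. EIF4E (chromosome 4, 98871684 to 98930637) stood at 307499, 313727 and 374493 in the 3 cell libraries and at 1735722, 1225904 and 1139357 in the EV libraries. Every EV library lay above every cell library, at a ratio of means of 4.12 (log2 fold change 2.02, SE 0.98), but limma did not call it (adjusted p = 0.0985). YTHDF1 (chromosome 20, 63195429 to 63216234) had means of 252478 ± 21374 and 1117995 ± 171325 (SD, n = 3 each), a log2 fold change of 2.14 (SE 0.88) that also missed the threshold with limma (adjusted p = 0.0571). CD9 (chromosome 12, 6199715 to 6238271) was at 79778, 78104 and 87710.0 in cells and at 455824, 378570.4 and 401520.4 in EVs, and rose by 2.33 on the log2 scale with an SE of 0.56 (adjusted p = 0.00425 by limma). The residual SDs of EIF4E, YTHDF1 and CD9 were 0.25, 0.18 and 0.12, below their SEs. limma-trend moves the spread of a gene toward that of genes of similar level, so its p-values do not rest on the gene's own spread alone. With edgeR's quasi-likelihood test on the recovered reads the adjusted p-values were 7.05e-06, 2.74e-06 and 7.93e-07 in the same order. Of the 3 construct genes limma called 1 as reported, and all 3 with equal totals, with a filter at a mean of 50, with no filter and without EV replicate 3. It called 1 without EV replicate 1 or any 1 of the cell replicates. Without EV replicate 2 it called none, and the CD9 call ended (limma adjusted p = 0.0725).

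Together the 3 construct genes took 5.94%, 5.89% and 6.56% of the reads in cells and 24.4%, 21.9% and 24.0% in EVs, a ratio of 3.82. An exact two-sided permutation test gave p = 0.1, the smallest that 3 against 3 allows (0.129 after Benjamini-Hochberg adjustment over 9 classes). EIF4E alone took 9.72% to 12.3% of EV reads, YTHDF1 8.93% to 9.21% and CD9 3.00% to 3.90%. Vector mRNA, plasmid and the endogenous transcripts cannot be separated in gene counts. EIF4EP2, a processed copy of the EIF4E mRNA on chromosome 17, moved with EIF4E, from 9973 ± 1246 to 44575 ± 9058 (SD, n = 3 each; log2 change 2.15), and EIF4EP5 from 91.7 ± 11.3 to 457 ± 88.3 (2.29). Both are copies that can take reads of the parent. GBP1, an interferon-induced GTPase gene, had means of 5.99 ± 4.49 for cells and 21.1 ± 5.35 for EVs (SD, n = 3 each, limma adjusted p = 0.0692), near the 3-read floor in either group. The sources used here do not say what GBP1 stands for in the vector.

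mRNAs for the machinery of vesicles did not follow the construct. CD63, the tetraspanin of late endosomes, was at 885, 780.4 and 911 in cells and 138, 151 and 182 in EVs, and fell by 2.45 on the log2 scale (SE 0.20, limma adjusted p = 3.75e-06). CD81 was at 1546 ± 58.6 and 1381 ± 233 (SD, n = 3 each) in cells and EVs, with overlapping groups (log2 fold change -0.18, 0.08 when scaled to equal totals without the 10 highest genes). Of 21 tetraspanins tested, 11 fell and 2 rose (median -0.66), among the first TSPAN6 (-2.49) and TSPAN3 (-2.21), and CD82 (1.49) and UPK1A (3.47) were the 2 that rose. Without cell replicate 2, 6 fell, and without cell replicate 1 or 3, 7 fell, while 4 rose without EV replicate 1 and 1 rose without cell replicate 3. Of 32 genes of vesicle biogenesis, 16 fell and 8 rose (median -0.72). Over all protein-coding genes tested 34.3% fell and 24% rose. In the quintile of protein-coding genes highest in cells 62.3% fell and 10.96% rose (median -0.87). The shares of both lists that fell lie between these values, and what the lists add beyond their level in cells was not tested. RAB11A, a GTPase of recycling endosomes, fell from 1342 to 253, and PDCD6IP, which encodes the ESCRT partner ALIX, from 1741 to 320.4. CHMP6, a subunit of the membrane-cutting ESCRT-III complex, rose from 165 ± 23.5 to 625 ± 134 (SD, n = 3 each; log2 change 1.90), and so did CHMP4B (1.28). Without cell replicate 1 or EV replicate 2, 5 rose, and after a correction for GC content 3 rose.

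Of the protein-coding genes that averaged 100 or more in each group, 7 are described from those with the largest lower bound of their fall. OGT, the enzyme that puts O-GlcNAc on nuclear and cytosolic proteins (chromosome X, 71533083 to 71575897), was at 2555, 2881 and 2583 in cells and 233, 223 and 250.2 in EVs. Its EV libraries lay close together and far below the cells (log2 fold change -3.50, SE 0.17, limma adjusted p = 2.54e-07). PAICS, an enzyme of purine synthesis (chromosome 4, 56435741 to 56464579), was at 3996, 4120.1 and 4241 in cells and 495, 371 and 315 in EVs (-3.41, SE 0.19). ATP6V1A, the catalytic subunit of the vacuolar proton pump, fell by 3.32 on the log2 scale, ACSL3, a fatty acid activating enzyme, by 3.28, and SELENOI, an enzyme of phosphatidylethanolamine synthesis, by 3.23. WDR36, a factor of 18S rRNA processing, fell by 3.21, and PSMA3, a subunit of the 20S proteasome, by 3.04. Cell and EV libraries overlapped for none of them. Where the mean in EVs could be lower, TMEM170B, a membrane protein gene, fell from 254 ± 14.6 to 10.0 ± 8.70 (SD, n = 3 each), PRTG, a receptor gene of the early embryo, from 309 to 18.5, VMA21, an assembly factor of the proton pump, from 1001 to 70.1 and CD47, the membrane protein that signals to phagocytes, from 357 to 27.3.

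In the other direction, MTRNR2L12 and MTRNR2L8 led, from 552 ± 173 to 9598 ± 2977 and from 133 ± 35.2 to 1413 ± 277 (SD, n = 3 each, log2 fold changes 4.12 and 3.42). They are nuclear copies of the mitochondrial 16S rRNA gene and can take its reads, while the 37 mitochondrial gene IDs were listed at 0 in all 6 libraries. AKAP17A, a splicing factor that binds protein kinase A (chromosome X, 1591593 to 1602514), was at 629, 692 and 743 in cells and 8021, 6117 and 5215 in EVs. All 3 EV libraries were far above the cells (log2 fold change 3.21, SE 0.20, limma adjusted p = 1.49e-06). FAM50A, a nuclear protein linked to the spliceosome (chromosome X, 154444126 to 154450654), was at 2119, 2143 and 2344 in cells and 17415, 15078 and 11369 in EVs (2.71, SE 0.21). GADD45B, a stress-induced gene (3.05), the embryonic myosin gene MYH3 (3.00), the immediate early gene EGR1 (3.00) and the anchoring collagen gene COL7A1 (2.92) made up the 8.

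**Figure D2:**
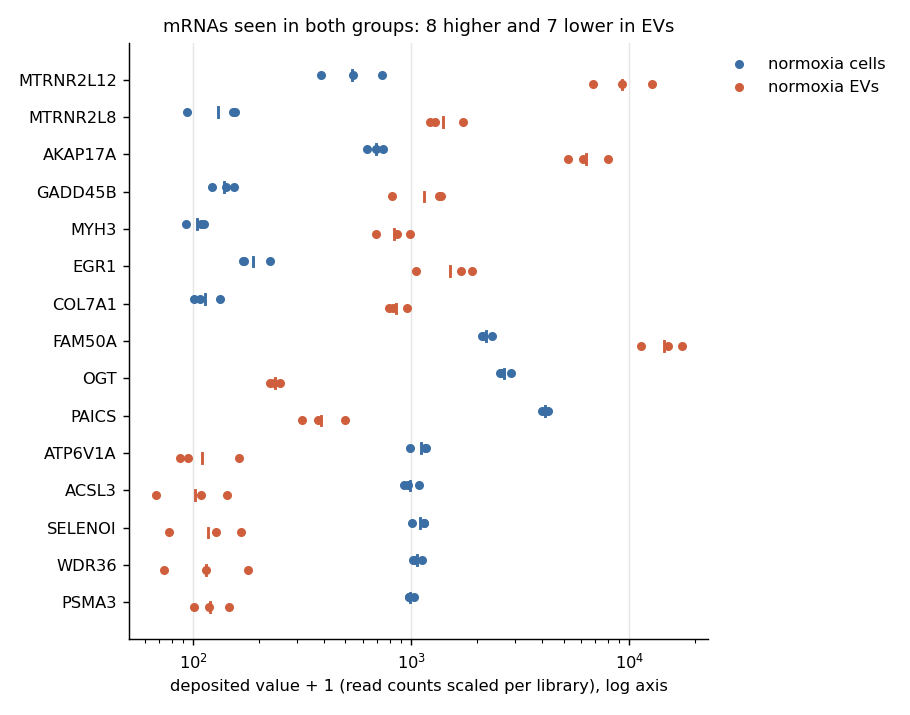
Normalised read count plus 1 (x axis, log) of 15 protein-coding genes that averaged 100 or more in each group, from those with the largest lower bound of the change, 8 higher and 7 lower in EVs. Points are libraries, blue for the 3 normoxia cell and orange for the 3 normoxia EV libraries, and ticks are their means on the log scale. The groups are apart in every row, from MTRNR2L12 at 552 and 9598 to PSMA3 at 990.5 and 121.

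The GC content of the 7 genes that fell ran from 37.3% for WDR36 to 42.3%, and that of the 8 that rose from 40.5% to 64.8% with a median of 56.4%, against a median of 50.2% over protein-coding genes tested. The purine share of the most purine-rich 200 bases overlapped between the sets, at 62% to 81.5% in the 8 that rose and 59.5% to 72.5% in the 7 that fell. PAICS, which fell, held the 72.5%, and only FAM50A and AKAP17A among the 8 lay above it. The most purine-rich 120 bases of coding sequence are shown for these 2 and for INCENP, purine-rich examples that rose, and for OGT and PSMA3, which fell, as read from the GENCODE 29 transcripts (GRCh38), with runs of at least 6 purines in capitals.
FAM50A, coding bases 371 to 490: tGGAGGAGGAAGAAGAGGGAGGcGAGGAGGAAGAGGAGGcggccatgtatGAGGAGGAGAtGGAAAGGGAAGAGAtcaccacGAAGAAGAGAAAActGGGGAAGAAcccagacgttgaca
AKAP17A, coding bases 843 to 962: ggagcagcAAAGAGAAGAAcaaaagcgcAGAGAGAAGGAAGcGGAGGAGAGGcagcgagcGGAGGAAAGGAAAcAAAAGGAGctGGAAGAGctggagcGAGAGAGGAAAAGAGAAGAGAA
INCENP, coding bases 1814 to 1933: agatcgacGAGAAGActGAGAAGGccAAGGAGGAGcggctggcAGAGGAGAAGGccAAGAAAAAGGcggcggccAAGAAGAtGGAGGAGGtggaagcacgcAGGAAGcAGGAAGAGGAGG
OGT, coding bases 2347 to 2466: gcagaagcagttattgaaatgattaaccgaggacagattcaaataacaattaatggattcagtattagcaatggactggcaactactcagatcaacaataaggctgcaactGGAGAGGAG
PSMA3, coding bases 636 to 755: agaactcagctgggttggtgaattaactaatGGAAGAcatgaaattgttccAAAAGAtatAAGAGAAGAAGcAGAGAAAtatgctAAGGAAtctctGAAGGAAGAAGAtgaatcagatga
Purines made up 80.8% of the stretch from FAM50A, 87.5% of that from AKAP17A and 80.8% of that from INCENP, against 62.5% in OGT and 69.2% in PSMA3. INCENP was added after its values were seen.

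Base composition went with the fold change over all protein-coding genes. From the lowest to the highest quintile of GC content, with medians of 39.1%, 44.3%, 50.2%, 56.4% and 62.6%, the median log2 fold change was -1.28, -0.71, -0.09, 0.46 and 0.74. In the lowest quintile 4.70% of genes rose and 66.4% fell, and in the highest 45.4% rose and 8.99% fell. Among 9952 genes averaging at least 100 the order was the same, from -1.47 to 0.26, and Spearman's rho across genes was 0.575, a description with no test. Among the genes averaging at least 100 each EV library showed the order on its own, from -1.07 to 0.37 in replicate 1, from -1.48 to 0.38 in replicate 2 and from -1.66 to 0.12 in replicate 3.

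Purine-rich stretches added to this within each GC quintile. Transcripts were ranked by the purine share of their most purine-rich 200 bases, and among genes averaging at least 100 the median log2 fold change in the lowest GC quintile went from -1.87 with the fewest purines to -1.13 with the most. In the highest GC quintile it went from -0.07 to 0.85. Well-expressed mRNAs of this kind that rose include NCL, the nucleolar protein nucleolin (79.0% purines in its richest 200 bases, from 27508 ± 2269 to 101186 ± 19148, SD, n = 3 each), and NEFM, a neurofilament gene expressed in HEK293 (from 2447 to 10415). NCL was named after its values were seen. Ranked by length of the 3′ UTR, the median among genes averaging at least 100 was -0.38 in the quintile with the shortest and -0.92 in the quintile with the longest, and by the coding share of the transcript it ran from -0.98 to -0.27. With genes averaging at least 10 the values were 0.38 and -0.66 for the 3′ UTR and -0.66 to 0.35 for the coding share, so the sign for the shortest 3′ UTRs and the highest coding share turned with the filter.

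**Figure D3:**
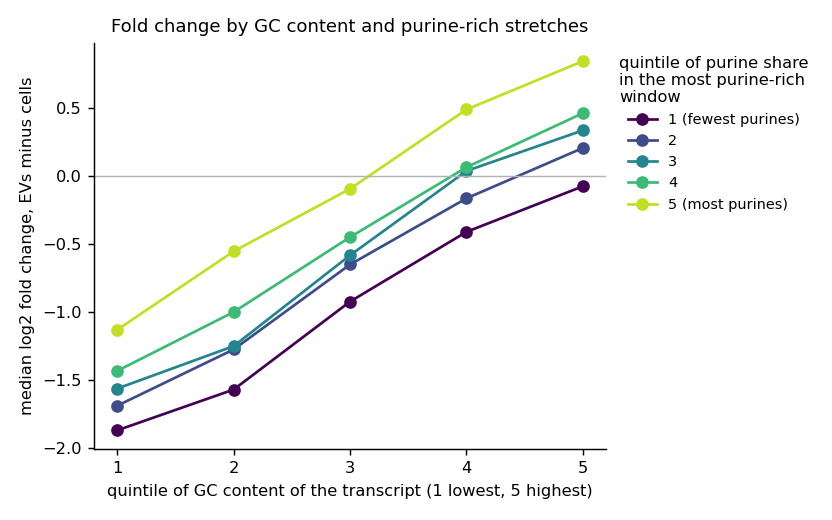
Median log2 fold change, EVs minus cells (y axis), of protein-coding genes that averaged 100 or more, by quintile of the GC content of the transcript (x axis), with a line for each quintile of the purine share in the most purine-rich 200 bases. The lines climb with GC content, from -1.87 to -0.07 in the quintile with the fewest purines and from -1.13 to 0.85 in the quintile with the most.

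The translation apparatus was mostly lower in EVs. Of 79 cytosolic ribosomal protein genes tested, 56 fell and 5 rose (median -0.87). Well-expressed genes fell as a class, however. Of protein-coding genes in the highest quintile of level in cells, 62.3% fell and 10.96% rose (median -0.87). The counts of this and the later lists of well-expressed mRNAs are read against these shares as well. What a list adds beyond its level in cells was not tested. RPS26 was at 2225, 2162 and 2505 in cells and 397, 454 and 414 in EVs (log2 fold change -2.44, limma adjusted p = 2.15e-06), and RPL21 fell by 2.55. The 5 that rose, named after their values were seen, were RPL19 (1.12), RPL38 (1.12), RPL31 (1.04), RPS19 (0.90) and RPS15 (0.89). Without EV replicate 3, 15 rose and 57 fell. Other mRNAs with a 5′ terminal oligopyrimidine tract, which mTOR regulates, fell in 15 of 18 cases (median -1.20), such as EEF1A1, the elongation factor that brings tRNA to the ribosome (from 27096 to 7686), and PABPC1, the poly(A) binding protein (-1.95). EEF1D was the 1 that rose (0.66), and none did without any 1 of the cell replicates or without EV replicate 2. Of 72 mitochondrial ribosomal protein genes, 48 fell and 2 rose, MRPL41 and MRPS26 (median -1.12). Without EV replicate 3, 4 rose.

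Initiation factors, the partners of the EIF4E that the vector carries, split by subunit. Of 33 tested, 19 fell and 5 rose (median -0.93, near the -0.87 of the highest quintile of level in cells). EIF4EBP2, a repressor that binds EIF4E, fell by 2.23, and so did the eIF3 subunits EIF3M (-1.84) and EIF3E (-2.55). EIF3A, the large scaffold of eIF3, rose from 13223 ± 445 to 26371 ± 4342 (SD, n = 3 each; log2 change 0.98, limma adjusted p = 0.00682), as did EIF3B (0.89), EIF3G (0.76), EIF4A3 (0.77) and EIF3J (0.59). Without EV replicate 2, 2 of the 33 rose, and without cell replicate 2, 3 rose. The m6A machinery, which writes, reads and erases that mark, had 6 of 16 genes lower, a share near the 34.3% of all protein-coding genes tested. Of the 16, 1, WTAP, was higher and 9 were not called (median -0.26, 0.02 after a correction for GC content). None rose without any 1 of the cell replicates or without EV replicate 2, and 4 rose without EV replicate 3. YTHDC2 fell from 1265 ± 31.2 to 263 ± 19.4 (SD, n = 3 each), IGF2BP1 by 1.68 and METTL3, the methyltransferase itself, by 1.59. mRNAs known to depend on EIF4E for translation fell in 13 of 22 cases and rose in 2, VEGFA (0.72) and SNAI1 (1.21). CDK2 (-2.48) and RHOA (-2.09) were among the lower. The median of -0.83 was also near the -0.87 of the highest quintile of level in cells. Without cell replicate 1, cell replicate 3 or EV replicate 2, 1 of the 22 rose.

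mRNAs for energy metabolism were mostly lower too. Of 57 nuclear genes of oxidative phosphorylation, 50 fell and none rose with limma or edgeR (median -1.78), and 1 rose with DESeq2 or without EV replicate 3. COX7C, a subunit of cytochrome c oxidase, was at 3882, 3822 and 3883 in cells and 856, 566 and 426 in EVs (log2 fold change -2.71, limma adjusted p = 4.96e-06). UQCRC2 of complex III fell by 2.31 and ATP5F1B of the ATP synthase by 2.23. In glycolysis 8 of 17 genes fell (median -0.58), led by LDHA, which makes lactate, at 7232, 7532 and 8210.4 in cells and 1392, 1176 and 792 in EVs. PGK1 was the 1 that rose, from 3115, 3011 and 3235 to 13792, 13222 and 24839.7 (log2 fold change 2.41, SE 0.25, limma adjusted p = 1.66e-05), and its EV replicate 3 stood above the other two. Without EV replicate 3, 3 of the 17 rose and 10 fell, and after a correction for GC content 14 fell (median -1.17). GAPDH, often used as a reference, was at 11036 ± 679.7 and 7761 ± 2062 (SD, n = 3 each), below the threshold of limma (adjusted p = 0.0795) but called lower by edgeR (adjusted p = 0.0149). Cholesterol synthesis had 16 of 23 genes lower and none higher with limma (median -1.31).

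mRNAs translated at the endoplasmic reticulum and those of folding and breakdown went the same way. Of 34 genes of the ER lumen and translocon, 27 fell (median -1.35), with STT3A of the oligosaccharyltransferase at -2.47, and 3 rose: P4HB (0.87), HSPA5 (0.77) and CALR (0.71), abundant chaperone genes. Without any 1 of the cell replicates or EV replicate 2, 1 of the 34 rose, and without EV replicate 3, 5 rose. Of 42 genes of secreted and membrane glycoproteins, 26 fell and 4 rose (7 without EV replicate 3), with the transferrin receptor TFRC at -2.76 and PLXNB2 at 1.03. Proteasome and TRiC chaperonin genes fell in 27 of 37 cases and rose in 2, PSMC3 and PSMC4 (median -1.52), with 5 higher without EV replicate 3 and 1 without any other library. CCT2 of TRiC was at 3279, 3295 and 3409 in cells and 499.5, 560.3 and 524 in EVs.

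Cell-cycle mRNAs showed few exceptions. In mitosis 34 of 47 fell and 1 rose (median -1.30), with CDK1, the kinase that starts it, from 1060.3 ± 37.6 to 176 ± 21.8 (SD, n = 3 each). The exception was INCENP, the scaffold of the chromosomal passenger complex whose stretch is printed above, at 3113, 3084 and 3534 in cells and 20981, 15789 and 13402 in EVs (log2 fold change 2.34, limma adjusted p = 8.73e-06). In DNA replication 28 of 45 fell and 1 rose (median -0.90, near the -0.87 of the highest quintile of level in cells). The 1 that rose was LIG1, the ligase that joins Okazaki fragments, from 1086 ± 23.8 to 4441 ± 1173 (SD, n = 3 each). Without EV replicate 3, 4 mitosis and 7 replication genes rose. Replication-dependent histone mRNAs, which end in a stem-loop and lack poly(A), fell in 19 of 20 cases (median -1.84), such as H1-3 (-2.47) and H2BC11 (-2.59). Of the 52 symbols on that list 22 were matched in the table, and near-identical copies may share reads.

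Nuclear and structural mRNAs were more mixed. Of 46 splicing regulators, 25 fell and 9 rose (median -0.73). HNRNPA2B1 and HNRNPA3, RNA-binding proteins of the hnRNP class, fell by 2.22 and 3.26, while RBM25 (0.96), LUC7L3 (0.91) and SRRM1 (0.76), with long charged runs, rose. Without cell replicate 1, 2 or 3, the number that rose was 3, 5 and 6, and without EV replicate 2, 6 rose. Of 40 cytoskeleton genes, 17 fell and 11 rose (median -0.24, 0.02 with equal totals without the 10 highest genes, where 15 rose and 15 fell). MYH9, the heavy chain of nonmuscle myosin, rose from 7894 ± 334 to 24877 ± 4815 (SD, n = 3 each), and ACTR2 of the Arp2/3 complex fell from 2118 to 278. ACTB was at 24404, 23312 and 25469 in cells and 27013, 24666 and 16885 in EVs, with overlapping groups (limma adjusted p = 0.737). Without cell replicate 2, 5 rose, and without cell replicate 1 or EV replicate 2, 7 rose.

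Immediate early genes, which serum and stress switch on within minutes and whose mRNAs are short-lived, mostly rose. Of 22 tested, 19 rose and none fell with limma or edgeR (median 1.78), against 25.5% and 28.5% of all genes tested. In the quintile of protein-coding genes lowest in cells 58.8% rose and 0% fell (median 2.44). In the next quintile, up to a level of 114 in cells, 27.0% rose and 10.6% fell (median 0.32). The part of the level in cells was not tested. FOS was at 74.5, 59.0 and 75.1 in cells and 726, 847 and 457 in EVs (log2 fold change 3.23, SE 0.26, limma adjusted p = 4.03e-06), JUNB rose by 2.44 and ATF3 from 1456 ± 129 to 6256 ± 1557 (SD, n = 3 each). BTG2 (0.29), KLF6 (-0.08) and KLF10 (0.05) did not pass. The list's median GC content was 55.2%, and after a correction for GC content 15 rose (median 1.13).

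U1 snRNA, the part of the spliceosome that reads the 5′ splice site, led the noncoding genes. RNVU1-7 (chromosome 1, 148038753 to 148038916) was at 10.6, 15.98 and 20.2 in cells and 1401, 1142 and 899 in EVs (log2 fold change 6.13, SE 0.30, limma adjusted p = 2.74e-07). RNU1-3 (chromosome 1, 16666785 to 16666948) was at 13.1, 10.5 and 7.70 in cells and 764, 465 and 549 in EVs (5.70), and RNU1-28P on chromosome 14 rose by 5.29. RNU1-27P, beside it, was at 13.6, 13.8 and 13.5 in cells and 1344, 676 and 897 in EVs. LINC02280, a lincRNA on chromosome 14, was at 3.52, 8.27 and 0.481 in cells and 297, 252 and 248 in EVs (6.07). The copies are printed to show how alike they are. Capitals mark the bases that pair with the 5′ splice site, written as DNA on the transcript strand.
RNU1-3: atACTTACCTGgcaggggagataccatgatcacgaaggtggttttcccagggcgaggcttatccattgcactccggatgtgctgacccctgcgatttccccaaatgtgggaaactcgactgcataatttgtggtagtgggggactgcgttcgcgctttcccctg
RNVU1-7: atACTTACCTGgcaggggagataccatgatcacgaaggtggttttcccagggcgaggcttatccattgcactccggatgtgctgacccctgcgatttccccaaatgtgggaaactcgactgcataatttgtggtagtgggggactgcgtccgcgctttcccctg
The only difference in 164 bases is T150C, counted from 1 at the 5′ end with the base of RNU1-3 first. RNU1-27P and RNU1-28P are 100% identical to RNU1-3 over the same length, so reads cannot be assigned to single copies with certainty. Summed over all 128 annotated U1 genes and copies, U1 took 0.00358% to 0.00455% of the reads in cells and 0.0471% to 0.0660% in EVs, a ratio of 14.1. Of the 12 that were tested, 10 rose and 1 fell, and over left-out libraries 0 to 3 fell. A copy that passed the filter through its EV libraries alone had to differ, and copies that share reads are not separate members. The count therefore describes the 12 that passed.

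Other RNAs of the nuclear and polymerase III classes split. Of 1803 annotated snRNA genes 35 passed the filter, which a gene can do through its EV libraries alone. Of these 35, 17 rose and 8 fell, against 25.5% and 28.5% of all genes tested. U5 genes such as RNU5E-1 (3.82) were among those that rose. RNU2-59P (-3.15) and RNU4ATAC (-4.22), the U4 of the minor spliceosome, were among those that fell. Without cell replicate 3, 2 fell, and without cell replicate 1 or 2, 4 fell. 5S rRNA, the polymerase III product of the large ribosomal subunit, rose at RNA5S9 from 583 ± 140.3 to 6716 ± 1526 (SD, n = 3 each; log2 change 3.53), and annotated rRNA and rRNA pseudogenes took 0.0800% of reads in cells and 0.663% in EVs. RN7SL4P, a copy of the 7SL RNA of the signal recognition particle, rose from 3412 ± 622 to 37928 ± 10049 (3.46), and the annotated 7SL copies took 0.0427% and 0.342% of reads. That share leaves out RN7SL1, RN7SL2 and RN7SL3, whose symbols were not matched, which does not show that their reads are absent. Of the 10 IDs with the highest mean share of reads over the 6 libraries, 3 had no entry in the annotation, and they took 1.18%, 1.59% and 0.171% of reads in cells and 4.11%, 2.85% and 0.793% in EVs. Which genes these 3 IDs stand for was not settled, and they may include genes whose symbols were not matched. The annotation's misc RNA class as a whole took 1.19% to 1.24% in cells and 1.19% to 1.68% in EVs, with overlapping groups (exact two-sided permutation p = 0.4, 0.45 adjusted over 9 classes). Most of it was 1 gene, 7SK, with a mean of 1.14% of reads in cells and 1.03% in EVs. Without the 10 highest genes, 7SK among them, the class took 0.0835% of the remaining reads in cells and 0.560% in EVs, a ratio of 6.71. RNA5S9 and RN7SL4P were named after their values were seen. RNY3, a Y RNA that binds RO60, fell from 370.0 ± 89.9 to 89.7 ± 25.6 (SD, n = 3 each, -2.05) and RNY4 by 1.72.

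The vault RNA VTRNA1-3 (chromosome 5, 140726158 to 140726246), a short component of the vault particle, was at 341, 320.2 and 399.8 in cells and 38.1, 45.0 and 21.5 in EVs (log2 fold change -3.36, SE 0.32). It is printed because vault RNA is widely reported in EV preparations, and here it was lower in every EV library.
VTRNA1-3: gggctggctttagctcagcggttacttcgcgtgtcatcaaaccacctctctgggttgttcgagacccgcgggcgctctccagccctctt
Of the 15 symbols on the list of small structured RNAs, RNY5, RPPH1, RN7SK and the 3 main 7SL genes were not matched. The counts of this list do not cover them, which does not show that their reads are absent. The RNA of RN7SK was read under the symbol 7SK, at a mean of 1.14% of reads in cells and 1.03% in EVs. Of the 8 that were tested 6 fell and none rose with limma (median -1.84), 4 fell without cell replicate 2 or 3, and 1 rose without EV replicate 3. RMRP, the RNA of RNase MRP, stood at 40599 ± 4185 in cells and, in EVs, at 65989 ± 17175 (SD, n = 3 each, limma adjusted p = 0.132, edgeR adjusted p = 0.0197). RMRP made up most of the summed level of the list, which was 40203 to 48523 in cells and 53469 to 86863 in EVs. The list was therefore higher in EVs by its sum and lower by its median.

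Guide RNAs of the nucleolus differed gene by gene. Of 866 annotated snoRNA genes 73 passed the filter, which a gene can do through its EV libraries alone. Of these 73, 30 rose and 18 fell (median 0.63), against 25.5% and 28.5% of all genes tested. Those that rose were led by SNORA71A (from 213 ± 20.3 to 1682 ± 411, SD, n = 3 each) and SNORA71D (log2 fold change 3.62), which guide pseudouridylation, with SNORA14B at 2.77. SNORD15B (-2.84) and SNORA53 (-2.58) fell. Without any 1 of the cell replicates, 24 to 26 rose and 6 to 9 fell. SCARNA21 and SCARNA5, guides of the Cajal body, fell by 2.87 and 2.53, while SCARNA22 rose by 2.06. Together snoRNAs took 0.148% to 0.165% of reads in cells and 0.250% to 0.438% in EVs, with EV replicate 1 the highest.

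Long noncoding RNAs kept in the nucleus differed from gene to gene. XIST, which coats the inactive X chromosome, fell from a mean of 40578 to 1068 (log2 fold change -5.36). NEAT1, the scaffold of paraspeckles (chromosome 11, 65422774 to 65445540), was at 3468, 3719 and 2611 in cells and 445, 364 and 354 in EVs (-3.06, limma adjusted p = 1.62e-06). MALAT1, of nuclear speckles, was at 36708, 39826 and 30176 and at 37142, 25963 and 21032, with overlapping groups (limma adjusted p = 0.343). Of 17 nuclear-retained lncRNAs tested 9 fell and 1, MEG3, rose (median -0.62). Without cell replicate 1, 6 fell, without cell replicate 2 or 3, 7 fell, and without EV replicate 1, 3 rose. SLC16A4-AS1 had a mean of 205 in cells and 1 read in the 3 EV libraries together, a ratio of 304 with a counting interval of 54.6 to 12024 (exact Poisson, 95%). MIR222HG, the host of a microRNA pair, was at 184, 217 and 208 in cells, at 23.8 in EV replicate 1 and at 0 in the other 2. PURPL (-4.41) and LINC00641 (-4.06) fell too. Host genes of snoRNAs and cytoplasmic lncRNAs fell in 14 of 22 cases (median -1.17), with SNHG3 at -2.71, and rose in 3, SNHG12 (2.14), SNHG14 and TINCR. Without EV replicate 1, 5 rose (median -0.81).

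**Figure D4:**
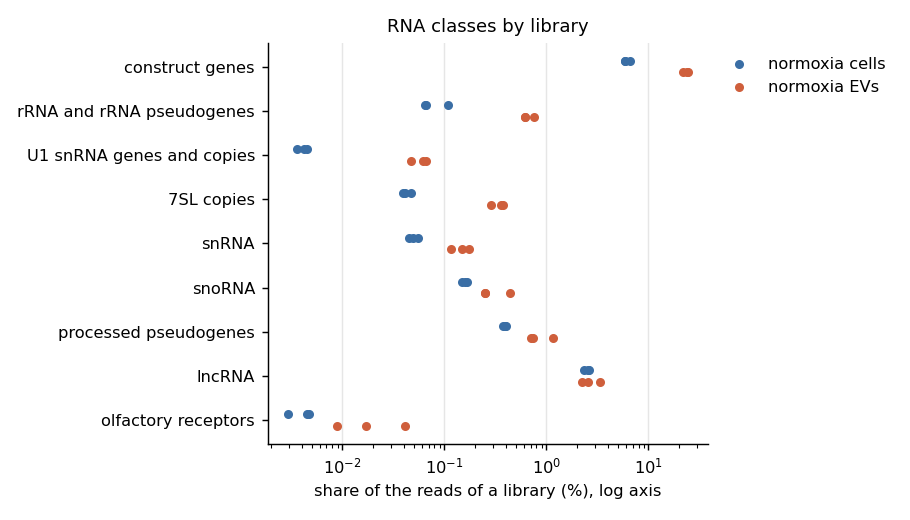
Share of the reads of each library (x axis, percent, log) taken by RNA classes (rows), with blue points for the 3 normoxia cell and orange points for the 3 normoxia EV libraries. The groups are apart for every class drawn but lncRNA (misc RNA, which also overlapped, is not drawn), from 5.89% to 6.56% in cells and 21.9% to 24.4% in EVs for the construct genes down to olfactory receptors.

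Genes that HEK293 cells hardly express were also more often read in EVs. Among protein-coding genes that averaged 100 or more over the 6 libraries with groups apart, 5 had the largest lower bound of their rise. They were the mucin genes MUC4 (chromosome 3, 195746765 to 195812277), MUC5AC and MUC6, with GOLGA6L2 and RASD1. MUC4, a membrane mucin, was at 77.5, 73.3 and 62.1 in cells and 3418, 4075 and 3575 in EVs (log2 fold change 5.68, SE 0.18, limma adjusted p = 1.12e-08). MUC6, a gastric mucin, was at 42.8, 44.1 and 57.3 in cells and 1648, 1603 and 1202 in EVs (4.92). MUC5AC, a secreted mucin of airways, rose from 11.7 ± 6.66 to 472 ± 92.5 (SD, n = 3 each, 5.36), GOLGA6L2, of a multigene family, from 15.6 to 693 and RASD1, a small GTPase, from 10.6 to 412. Mucin coding sequence is built of tandem repeats, shown by a unit of MUC4 in capitals and the next unit after it, coding bases 6459 to 6554.
MUC4: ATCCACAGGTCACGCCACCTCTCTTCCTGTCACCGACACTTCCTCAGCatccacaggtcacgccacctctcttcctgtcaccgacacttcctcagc
Of 17 mucin genes 14 passed the filter on low values and 13 of them rose. A gene that passed through its EV libraries alone had to differ, so this count describes the 14 and not the family. In the quintile of protein-coding genes lowest in cells 58.8% rose. Of 91 protein-coding genes with a stretch of 300 bases at least 90% identical to itself at a fixed shift, 40 rose and 15 fell (median 0.84). Over all protein-coding genes tested 24% rose and 34.3% fell. The 91 had a median level in cells of 87.5, against 207 over all, and a median GC content of 52.5%, against 50.2%. The part of the repeats in the change was not tested. Mucins were grouped after their values were seen.

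Markers of tissues other than kidney cells had a higher summed level in every EV library than in any cell library, and their counts are read against the 25.5% of all genes that rose. Of the 15 epidermal markers 11 passed the filter and 9 rose (median 3.25), with KRT9, a keratin of palm and sole, at 11.1, 7.16 and 1.92 in cells and 188, 288 and 227 in EVs, and KRT10 at 272 ± 36.3 and 266 ± 40.9 (SD, n = 3 each). Their summed level was 325 to 366 in cells and 780.2 to 1583 in EVs, and 6 rose without cell replicate 2, EV replicate 2 or EV replicate 3. Blood and immune markers summed to 127 to 141 and 490.0 to 770.1, with 4 of 8 tested genes higher, such as CD4 (3.01), with LST1 at 0 in EVs and HBG1 at 0 in cells. Liver and plasma protein markers summed to 85.0 to 103 and 207 to 688, with 2 of 8 tested higher, HPX and SERPINA1, a share near that of all genes, and APOC3 at 0 in cells. Without EV replicate 1 or with edgeR 4 of these 8 were higher, and with DESeq2 6. Their part in the other differences was not tested. Of 30 interferon response genes 7 rose and 2 fell, among them IFI6 (-1.54), and 3 rose and 3 fell with equal totals. Without any 1 of the cell replicates 4 interferon response genes rose. A member that passed the filter through its EV libraries alone had to differ, so these counts describe the members that passed and not the lists.

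Olfactory receptor genes, which are read in nasal sensory neurons, were higher in EVs as well. Of 356 genes 46 passed the filter, 21 rose and none fell with limma or edgeR (median 2.69). A gene that passed through its EV libraries alone had to differ, so this count describes the 46 and not the family. With no filter 21 of 317 rose (median 0.84), against 4692 of 49114 genes in all, and with a filter at a mean of 50 none was tested. OR56A5 was at 0, 0 and 1.92 in cells and at 28.5, 46.8 and 139 in EVs. Over all 356 the RPKM values were 0.0547, 0.0526 and 0.0339 in cells and 0.104, 0.201 and 0.483 in EVs, and EV replicate 3, which showed the most genes at equal depth, was the highest. All protein-coding genes together stood at 9.09 to 9.11 in cells and 8.42 to 8.50 in EVs on the same scale. Without EV replicate 1, 38 olfactory receptor genes rose, without EV replicate 2, 13, and without any 1 of the cell replicates, 12 to 14. The part of this signal on silent genes in the other low genes that rose was not tested.

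Pseudogenes and lincRNAs, mostly low in cells, followed. Of 925 processed pseudogenes that passed the filter 303 rose and 62 fell, and of 1130 lincRNAs 403 rose and 75 fell. Here too a gene that passed through its EV libraries alone had to differ, and the medians moved with the filter. For processed pseudogenes the median was 1.51 at a mean of 10, 1.07 at a mean of 50 (49 of 94 rose and 11 fell) and 0.25 over 8268 genes with no filter (291 rose and 119 fell). For lincRNAs it was 1.61, -0.25 at a mean of 50 (23 of 130 rose and 37 fell) and 0.57 over 5975 genes with no filter. Processed pseudogenes took 0.391%, 0.401% and 0.378% of the reads in cells and 0.713%, 0.746% and 1.15% in EVs, the highest again in EV replicate 3, and lncRNAs 2.33% to 2.59% and 2.23% to 3.32%, with overlapping groups. Without EV replicate 3, 194 processed pseudogenes and 247 lincRNAs rose, and without cell replicate 3, 200 and 261. Without any 1 of the cell replicates 20 to 22 processed pseudogenes and 39 to 42 lincRNAs fell. Zinc finger genes of chromosome 19, which are AT-rich, were split, with 66 of 219 higher and 24 lower (median 0.21). After a correction for GC content 100 were higher and 11 lower (median 0.65). Without cell replicate 2 or 3, 15 and 14 were lower, and without EV replicate 1, 37.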

How the data were processed

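Long RNA of 3 normoxia cell and 3 normoxia EV libraries was analysed, grouped by sample title, with no hypoxia library. The deposited signal values are gene counts that the authors divided by 1 factor per library, read from the values. Bowtie 0.12.2 and DESeq2 1.30.1, with hg38 and GRCh38, are listed in the submitters' processing notes. The sources used here do not give the counter, annotation and strand setting, so overlapping and antisense genes and near-identical copies may share reads. Whole reads were recovered (100% of values within 0.01 of a whole number). Of 57773 gene IDs, 52338 matched GENCODE 29 on GRCh38 and 5435 (9.41%) did not, taking 3.72% of cell and 8.40% of EV reads.

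limma-trend (limma 3.58.1, R 4.3.3) was fitted to log2(value + 1), a scale that understates the change of low genes, for genes that averaged 10 or more, and p-values were adjusted by Benjamini-Hochberg and called under 0.05. Libraries of 1 group differed beyond counting noise, so each was 1 replicate. The fit was run on simulated counts whose spread was set in advance and not estimated from these libraries. That run checks the fit and not the error rate in these data. edgeR 4.0.16 and DESeq2 1.42.0 on recovered reads (5625 and 6885 genes higher, 6403 and 5825 lower), other scalings, filters, pseudocounts and left-out replicates were alternatives. limma without trend, the GC correction and the splits of the GC quintiles were added after seeing the data. Shares were tested by exact two-sided permutation.

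Named are the 5 higher and 5 lower protein-coding genes with the largest lower 95% bound of the change (absolute value less 1.96 SE), an average of 100 or more and no overlap of the groups, 8 and 8 with that mean in each group, 5 and 5 noncoding genes, 12 fixed genes and up to 3 per list. RN7SL1 and RN7SK were not matched by symbol, and some genes these rules name are not reported here. Sequences are from GENCODE 29 transcripts. The comparison and the 29 lists were chosen with earlier results of these data known.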

Additional observations from a re-analysis of the deposited data

How the results depend on the processing

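Changes of pseudocount, scaling, tool, weights and left-out library kept the number of genes higher in EVs (5397) and lower (6027) within 1.5 times. With a filter at a mean of 50, 2474 rose and 5663 fell. Leaving out 1 library gave 3932 to 6810 higher and 4737 to 6681 lower. By scaling, 47.2% of called genes were higher as reported, 39.5% (4580 against 7007) with equal totals and 56.1% (6537 against 5112) with equal totals without the 10 highest genes. Without the 10 highest genes the ratio of EV to cell share was 0.960 for protein-coding genes, 3.99 for snRNA, 2.70 for snoRNA, 6.71 for misc RNA and 3.01 for processed pseudogenes, and without EV replicate 3 the lncRNA ratio turned from 1.09 to 0.964 (0.964 to 1.18 over left-out libraries). For genes with a mean of at least 100 the difference between the highest and the lowest quintile was -0.18 for transcript length (-0.63 as reported), 1.74 for GC content (2.02), -0.45 for exon number (-0.67), 0.35 for coding length (0.24), -0.54 for 3′ UTR length (-1.04), 0.34 for purines (0.02), -1.04 for the level in cells (-3.31) and 0.71 for coding share (1.01), and the mean correlation of EV with cell profiles was 0.685 (0.765). The cause was not tested. Same-numbered cell and EV libraries had correlated deviations of -0.104, -0.0443 and -0.117, so the numbers do not pair them. A fit with the replicate number as a block called 5107 higher and 5954 lower, of which 4964 and 5748 were called without it, and CD9 was not called (limma adjusted p = 0.106). EV depth of 5266244 to 7001767 reads limits what can be said of genes near 3 reads.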
